A study of Mus musculus with 8 samples.

Results

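The genes described here are 10 markers of astrocytes, the star-shaped glial cells that take up transmitter, potassium and water around neurons: Slc1a2, Slc1a3, Aqp4, Aldh1l1, Gja1, Gjb6, S100b, Sox9, Ntsr2 and Slc7a10. They were chosen by symbol, and all 10 were found once each among the 54532 genes of the deposited table. RNA came from the substantia nigra, a midbrain region rich in dopamine neurons, of male C57BL/6 mice, with 2 libraries in each of 4 groups. The control group was titled WT, with control as its treatment. The vector group was given AAV-α-synuclein, an adeno-associated virus that carries the gene for the protein found in Lewy bodies. The AKG group was given AKG (α-ketoglutarate, a TCA cycle intermediate), in the diet according to the series title, and the combined group AAV-α-synuclein+AKG. The age of the mice, the dose, the promoter of the vector, any empty vector in the control and AKG groups, and any pooling of animals are unstated in the sources used here. The labels do not state that the 2 libraries of a group are from different mice, so p-values measure only the spread between these libraries, which may be technical.

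Astrocytes clear glutamate from the synaptic cleft through sodium-driven carriers, pass ions and metabolites to each other through gap junctions, and line blood vessels with endfeet packed with water channels. The members stand for these tasks: glutamate uptake (Slc1a2, Slc1a3), gap junctions (Gja1, Gjb6), water transport (Aqp4), folate metabolism (Aldh1l1), calcium binding (S100b), transcription (Sox9), a peptide receptor (Ntsr2) and amino acid exchange (Slc7a10). Their transcripts are used to follow astrocytes in mixed brain tissue, whereas Gfap and Vim mark the reactive state.

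Levels are given in FPKM, fragments scaled to gene length and library size. Differences are log2 differences ± standard error on the log2(FPKM + 1) scale (limma, 2 libraries per group). Comparison of levels between genes is limited by a trend with gene length that differed between libraries, with its values given below. Libraries held 16544190 to 19125423 reads on genes. Member genes were covered by 546 to 26616 reads per library. Control library 1 stood apart, with a mean Spearman correlation of 0.926 with the other libraries across genes, against 0.971 to 0.975 for the other 7. In the same library the 12 neuron markers, among them Snap25 and Syt1, summed to 941 FPKM, against 1275 to 1416 elsewhere. The 20 reactive astrocyte genes summed to 310 FPKM there and to 122 to 163 elsewhere, and the 9 choroid plexus genes to 8939 there and to 55.3 to 4956 elsewhere. In bulk tissue a change in the number of astrocytes and a change in RNA per astrocyte cannot be told apart.

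The summed and the mean level of the astrocyte identity genes were nearly the same in all 4 groups. Their summed level was 469 and 465 FPKM in control, 489 and 446 with the vector, 435 and 468 with AKG and 477 and 470 with both. The vector and AKG libraries overlapped control, and the combined libraries lay just above both control libraries. The sum joins opposite moves of its most abundant members. Slc1a2 was at 42.5 and 66.3 FPKM in control and 81.2 to 104 elsewhere, and S100b at 137 and 121 in control and 89.1 to 122 elsewhere. The mean of their log2 values ranged from 5.16 in AKG library 1 to 5.32 in vector library 1, and both control libraries lay inside that range at 5.27 and 5.24. The median log2 difference over the 10 genes was -0.04 for the vector group against control, -0.08 for AKG against control and -0.04 for the combined group against control, beside a median of -0.01 over all 13716 tested genes in each of these. It was 0.02 for combined against vector, 0.05 for combined against AKG and 0.04 for the interaction. All 10 genes passed the filter on low values, an 8-library mean of 1 FPKM or more, and lay between the 60.9th percentile (Sox9) and the 97.0th (S100b) of the tested genes by mean FPKM.

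**Figure D1:**
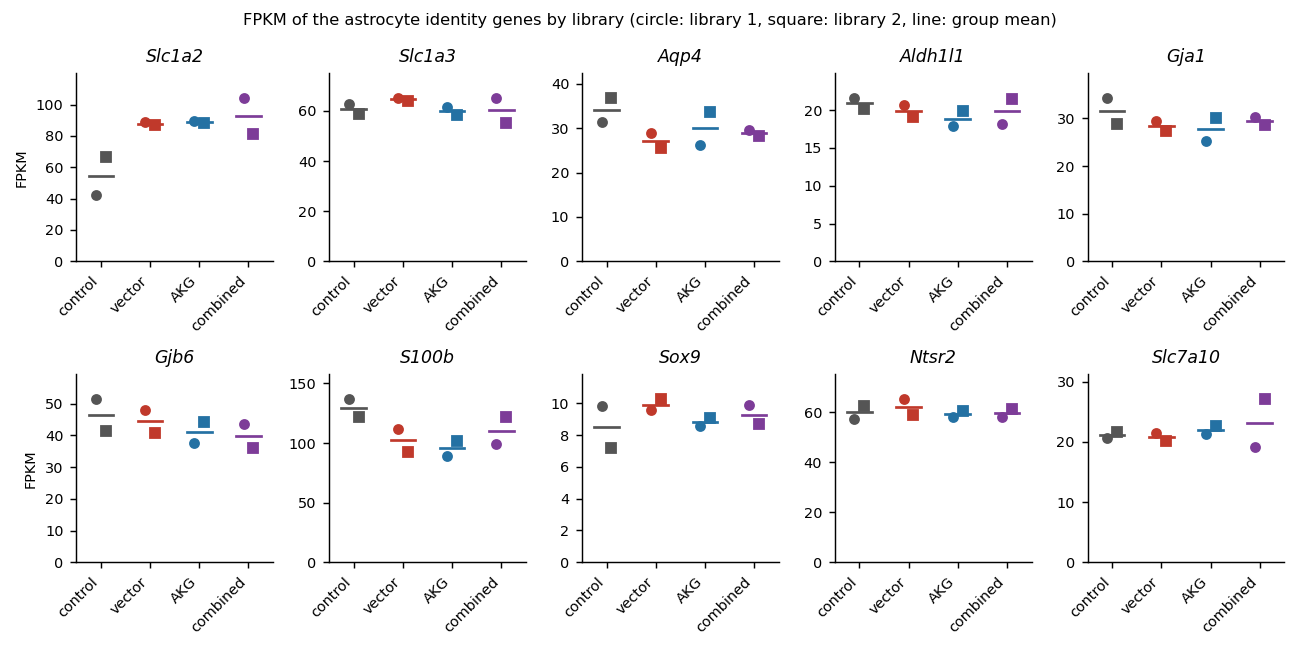
FPKM of each astrocyte identity gene (y axis, from 0) by group (x axis), with library 1 as a circle, library 2 as a square and the group mean as a line. Slc1a2 has both control libraries, at 42.5 and 66.3, below the 6 others, at 81.2 to 104, while Ntsr2 and Slc1a3 lie within a narrow band in all groups.

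No astrocyte identity gene passed the threshold in any comparison (limma, adjusted p under 0.05), with 0% of all tested genes called for the vector group against control, combined against control, combined against vector, combined against AKG and the interaction, and 0.00729% for AKG against control. Voom on the recovered reads also called none of the 10 in any of the 6 comparisons. At an unadjusted p under 0.05 there was 1 of 10 in vector against control (Slc1a2), 2 in AKG against control (Slc1a2 and S100b), 1 in combined against control (Slc1a2), 0 in combined against vector, 0 in combined against AKG and 1 in the interaction (S100b). Over all tested genes the numbers at that level were 2305, 2431, 1907, 186, 156 and 998 of 13716. A difference within ±0.25 was found for 7, 8 and 9 of the 10 members in vector, AKG and combined against control, beside 58.7%, 59.7% and 62.7% of tested genes. It was found for all 10 in combined against vector and in combined against AKG, beside 91.2% and 92.5%.

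Groups were also compared by whether their libraries overlapped. In the vector group 2 members lay above control in every library (Slc1a2 and Slc1a3), where 26.3% of all tested genes did, and 2 lay below (Aqp4 and S100b), where 27.6% did. With AKG 1 lay above (Slc1a2, background 26.0%) and 2 below (Aldh1l1 and S100b, background 26.4%). In the combined group 1 lay above (Slc1a2, background 21.3%) and 1 below (Aqp4, background 20.5%). Without control library 1 there were 3 above and 3 below with the vector, where 34.6% and 40.5% of tested genes were, 2 and 4 with AKG (35.0% and 39.2%), and 2 and 2 with both (29.3% and 32.4%). Between the combined and the vector group all 10 genes overlapped, where 12.9% of tested genes lay above and 11.4% below. All 10 also overlapped between the combined and the AKG group, where 11.3% lay above and 11.8% below. Among only 10 genes such counts are coarse, and no difference from the background shares was tested.

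The glutamate carriers had unlike patterns. Slc1a2 encodes GLT-1, the carrier that does most of the glutamate uptake in the adult forebrain (ENSMUSG00000005089, chromosome 2, 102658659 to 102790784 in GRCm38, plus strand). It was at 42.5 and 66.3 FPKM in the control libraries, 88.5 and 86.8 with the vector, 89.4 and 87.9 with AKG, and 104 and 81.2 with both. Both control libraries were thus below all 6 others. The group means were 54.4 ± 16.8 in control, 87.7 ± 1.24 with the vector, 88.7 ± 1.05 with AKG and 92.7 ± 16.3 with both (SD, n = 2). Among the members it was second by mean level, but in control library 1 its rank was 5.

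The log2 difference of Slc1a2 from control was 0.71 ± 0.22 in the vector group (adjusted p = 0.294), 0.73 ± 0.22 in the AKG group (adjusted p = 0.269) and 0.78 ± 0.22 in the combined group (adjusted p = 0.349). These 3 comparisons share the control libraries. Without control library 1 the differences were 0.40, 0.41 and 0.47, and without control library 2 they were 1.03, 1.04 and 1.1 with adjusted p of 0.0117, 0.00962 and 0.00970. In that setting 24.5%, 24.6% and 21.3% of all tested genes passed the threshold, and 9.98% did for the interaction. Over all alternatives the adjusted p ranged from 0.0117 to 0.761, from 0.00962 to 0.738 and from 0.00970 to 0.877. With a smooth trend in gene length removed from each library the log2 differences were 0.38, 0.40 and 0.48. Among the treated groups the 95% interval was -0.44 to 0.58 for combined against vector and -0.46 to 0.56 for combined against AKG. Slc1a2 has the longest gene model of the 10, at 13133 bases (96.2th percentile of tested genes), and across tested genes the log2 deviation of a library had a Spearman rho with gene length of -0.52 and -0.28 in the control libraries and of -0.17 to 0.47 in the others. Over the 10 members alone, rho was -0.35 and -0.38 in control, 0.18 to 0.73 in 5 of the others and -0.32 in combined library 2. The sum of 10 dopamine neuron markers, with Th and Slc6a3, also set control apart, at 149 and 154 FPKM beside 63.9 to 90.2 in the other 6 libraries. Not all of them did so singly. Of 8 tested, 5, 6 and 5 lay below control without overlap in the vector, AKG and combined groups. The shares of all tested genes were 27.6%, 26.4% and 20.5%. Ret was at 4.62 and 12.6 FPKM in control and at 7.86 to 9.21 elsewhere. The neuron list was low in control library 1 alone. The part of cell content in the Slc1a2 difference was not tested.

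Slc1a3 encodes GLAST, the other astrocyte glutamate carrier (ENSMUSG00000005360, chromosome 15, 8634124 to 8710764, minus strand). Its values were 62.8 and 58.6 FPKM in control, 65.1 and 64.1 with the vector, 61.7 and 58.3 with AKG and 65.3 and 55.4 with both. The highest library was 1.18 times the lowest, against 2.45 times for Slc1a2. Both vector libraries lay above both control libraries, with a log2 difference of 0.09 ± 0.12 (adjusted p = 0.659) that was 0.04 and 0.14 when control library 2 or 1 was left out and 0.21 with quantile normalization, and turned to -0.12 with the gene length trend removed. The 95% interval was -0.19 to 0.37 for the vector group, -0.29 to 0.26 for AKG and -0.29 to 0.27 for the combined group against control. The ratio of Slc1a2 to Slc1a3 was 0.678 and 1.13 in control, 1.36 and 1.35 with the vector, 1.45 and 1.51 with AKG and 1.60 and 1.47 with both. The control ratios were the lowest of the 8, and control library 1 was the sole library with more Slc1a3 than Slc1a2.

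Upstream sequences of these carriers are shown because they come from related genes with unlike patterns, and that of S100b because its levels ran opposite to Slc1a2. They are the bases before the RefSeq transcription start (GRCm38.p6), 5′ to 3′ on the gene's strand and without annotated exon bases. For Slc1a2 this is chr2:102706188-102706355, which ends 83 bases before the start, for Slc1a3 chr15:8710808-8711057 and for S100b chr10:76253586-76253835, both ending at the base before the start. The RefSeq start used for Slc1a2 lies inside the gene model of the deposited table. Capitals mark 3 motifs searched on both strands: ACAAT, a core of SOX factor sites, TTGGC, a half-site of nuclear factor I, and TATAAA, the TATA box.
Slc1a2: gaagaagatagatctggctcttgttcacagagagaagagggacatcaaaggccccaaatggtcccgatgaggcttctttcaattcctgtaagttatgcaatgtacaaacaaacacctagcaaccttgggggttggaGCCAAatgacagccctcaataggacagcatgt
Slc1a3: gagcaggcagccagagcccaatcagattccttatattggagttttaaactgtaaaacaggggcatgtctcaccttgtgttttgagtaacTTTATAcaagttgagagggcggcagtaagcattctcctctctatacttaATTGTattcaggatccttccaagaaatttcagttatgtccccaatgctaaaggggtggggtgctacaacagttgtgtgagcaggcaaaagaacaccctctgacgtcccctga
S100b: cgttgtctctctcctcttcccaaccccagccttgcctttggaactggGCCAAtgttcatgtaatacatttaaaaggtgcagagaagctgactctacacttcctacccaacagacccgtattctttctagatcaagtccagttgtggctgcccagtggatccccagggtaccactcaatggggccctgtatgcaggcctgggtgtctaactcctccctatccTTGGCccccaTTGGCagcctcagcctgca
The Slc1a2 stretch holds 1 TTGGC on the reverse strand, the Slc1a3 stretch 1 ACAAT and 1 TATAAA, both on the reverse strand, and the S100b stretch 3 TTGGC. Promoters of 8 of the 10 members were in the table. In the 250 bases before the start, 1 of the 8 held ACAAT (27.7% of all 32851 promoters did), 3 held TTGGC (41.5%) and 1 held TATAAA (12.4%). A match describes the letters only.

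S100b encodes a calcium-binding protein of astrocytes that is also made by some oligodendrocyte lineage cells (ENSMUSG00000033208, chromosome 10, 76253853 to 76261159, plus strand). It was the most abundant member by mean, at 137 and 121 FPKM in control, 112 and 92.8 with the vector, 89.1 and 102 with AKG and 98.8 and 122 with both. Both vector and both AKG libraries were below both control libraries, and combined library 2 lay between the control libraries. The log2 difference from control was -0.34 ± 0.16 in the vector group (adjusted p = 0.309) and -0.43 ± 0.16 in the AKG group (adjusted p = 0.270), and its 95% interval was -0.61 to 0.15 in the combined group.

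S100b has the shortest gene model of the members, at 1484 bases (13.8th percentile), and with the length trend removed the differences were -0.08 in the vector and -0.20 in the AKG group. With quantile normalization they were -0.10 and -0.24. The vector difference was -0.21 without vector library 2. The 11 oligodendrocyte markers used, with Mbp and Mog, summed to 1255 and 1677 FPKM in control, 1347 and 1124 with the vector, 1122 and 1356 with AKG and 1204 and 1884 with both, and their part in the S100b values was not tested. S100b was also the member with the smallest p for the interaction, that is, whether the combined group departs from the sum of the vector and AKG differences, at 0.54 ± 0.23 (adjusted p = 0.537). That value was 0.26 with the length trend removed and 0.27 with quantile normalization. Any shift from control that all treated groups share enters it too, and combined against vector was 0.11 ± 0.16 for S100b. Between the combined and the AKG group S100b again had the smallest p of the members, with 0.20 ± 0.16 (adjusted p = 1), and 0.05 without combined library 2, 0.35 without combined library 1, 0.11 without AKG library 1 and 0.30 without AKG library 2.

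**Figure D2:**
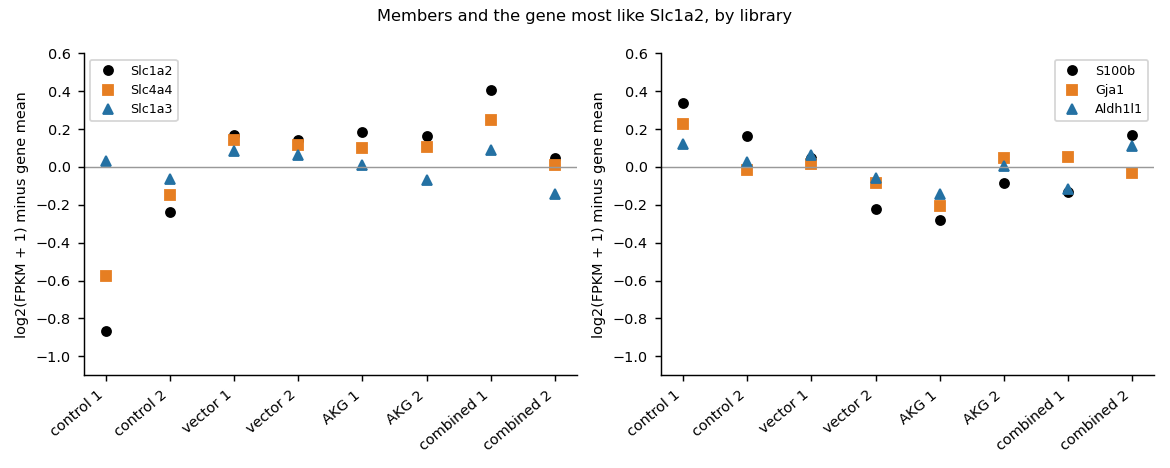
Deviation of log2(FPKM + 1) from the gene's 8-library mean (y axis) in each library (x axis). In the left panel Slc1a2 and Slc4a4 are low in both control libraries while Slc1a3 stays near 0, and in the right panel S100b is highest in control libraries 1 and 2 and combined library 2 and lowest in AKG library 1, with Aldh1l1 and Gja1 varying less.

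The connexin genes Gja1 and Gjb6, whose proteins form the gap junctions that couple astrocytes, differed little between groups. Gja1 (ENSMUSG00000050953, chromosome 10, 56377330 to 56402513, plus strand) was at 34.3 and 28.8 FPKM in control, 29.5 and 27.4 with the vector, 25.2 and 30.2 with AKG and 30.3 and 28.5 with both. Control library 1 was the highest, and every group overlapped control. Gjb6 (ENSMUSG00000040055, chromosome 14, 57123303 to 57133611, minus strand) was at 51.6 and 41.2, 48.1 and 40.8, 37.5 and 44.3, and 43.6 and 36.1 FPKM in the same order of groups. Here too control library 1 was the highest, and the libraries of all groups overlapped. The 95% intervals against control in the vector, AKG and combined groups were -0.46 to 0.18, -0.50 to 0.14 and -0.41 to 0.22 for Gja1, and -0.45 to 0.34, -0.57 to 0.22 and -0.61 to 0.19 for Gjb6. Gjb6 had the smallest p of the members for combined against vector, at -0.16 ± 0.17 (adjusted p = 1), which was -0.29 without combined library 1, -0.02 without combined library 2, -0.04 without vector library 1 and -0.27 without vector library 2. The ratio of Gjb6 to Gja1 lay between 1.27 in combined library 2 and 1.63 in vector library 1. Over the 8 libraries the pair had a Pearson r of 0.81.

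Aqp4 encodes the water channel of the perivascular endfeet (ENSMUSG00000024411, chromosome 18, 15389394 to 15403684, minus strand). Its values were 31.5 and 36.9 FPKM in control, 28.9 and 25.5 with the vector, 26.3 and 33.7 with AKG and 29.7 and 28.3 with both. The vector and combined libraries lay below both control libraries, and AKG library 2 lay between them. The log2 difference was -0.32 ± 0.15 in the vector group (adjusted p = 0.308) and -0.23 ± 0.15 in the combined group (adjusted p = 0.457). Without control library 2, the library with the most Aqp4, these were -0.21 and -0.11. With the length trend removed they were -0.38 and -0.29.

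Aldh1l1, which encodes a folate-metabolizing dehydrogenase and is a widely used pan-astrocyte marker (ENSMUSG00000030088, chromosome 6, 90486427 to 90600203, plus strand), was at 21.6 and 20.2 FPKM in control and 20.7 and 19.0 with the vector. It was at 17.9 and 19.9 with AKG and at 18.2 and 21.5 with both. Both AKG libraries lay below both control libraries, by -0.14 ± 0.12 (adjusted p = 0.519), and the difference was -0.07 without AKG library 1, -0.21 without AKG library 2 and -0.09 without control library 1. Sox9, a transcription factor of glial fate (ENSMUSG00000000567, chromosome 11, 112782224 to 112787760, plus strand), had the lowest level of the 10 in every library. It was at 9.85 and 7.18 FPKM in control, 9.56 and 10.3 with the vector, 8.56 and 9.07 with AKG and 9.88 and 8.70 with both. Control library 2 was the lowest library for Sox9, control library 1 was among the highest, and every group overlapped control.

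Ntsr2 encodes a neurotensin receptor that in brain is enriched in astrocytes (ENSMUSG00000020591, chromosome 12, 16653382 to 16660227, plus strand). It was at 57.4 and 62.6 FPKM in control, 65.4 and 58.8 with the vector, 58.1 and 60.4 with AKG and 58.0 and 61.3 with both. Of the 10 it varied least, with a coefficient of variation of 4.61% over the 8 libraries, against a median of 11.8% over the 5358 genes at or above the lowest member mean. Its 95% intervals against control were -0.21 to 0.31 with the vector, -0.28 to 0.24 with AKG and -0.27 to 0.25 with both. Slc7a10 encodes Asc-1, an exchanger of small neutral amino acids (ENSMUSG00000030495, chromosome 7, 35186385 to 35201114, plus strand). It was at 20.5 and 21.6 FPKM in control, 21.5 and 20.1 with the vector, 21.3 and 22.6 with AKG and 19.1 and 27.2 with both. The lowest and the highest of the 8 values both came from the combined group. Slc7a10 shares 377 exon bases (17.9% of its own) with Lrp3 on the other strand, which was at 22.3 FPKM on average, and since the strand setting of the counting is not given, reads from this stretch cannot be told apart.

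**Figure D3:**
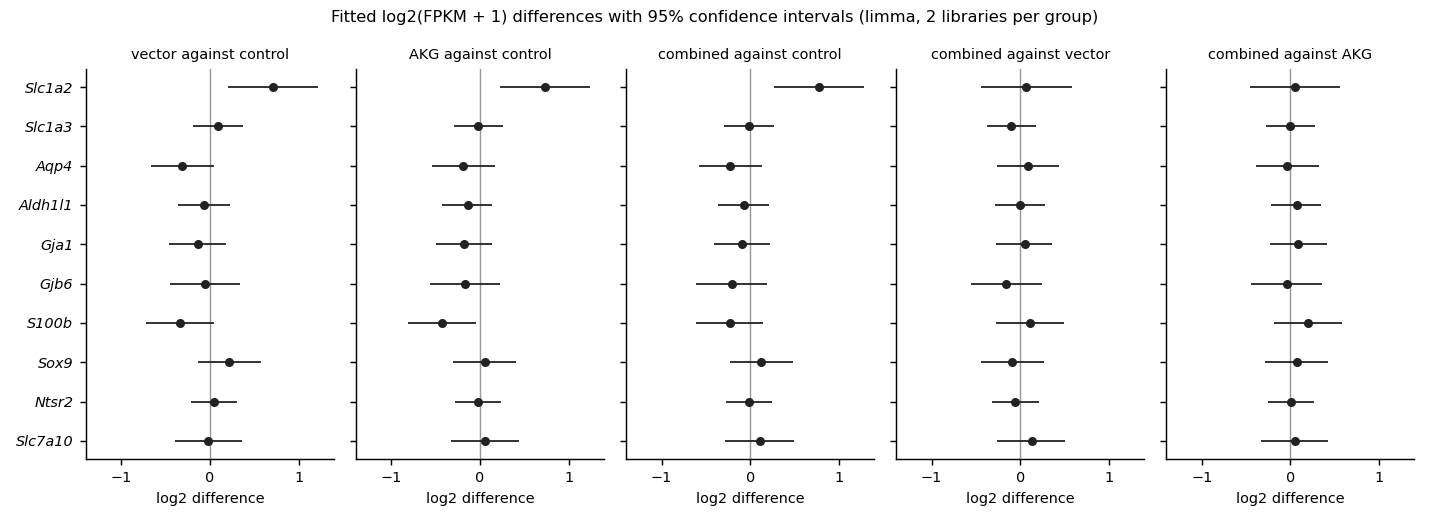
Fitted log2 difference (x axis) of each astrocyte identity gene (y axis) in 5 comparisons, with bars for the 95% confidence interval of limma before adjustment for multiple genes. The intervals of Slc1a2 in the 3 comparisons with control and of S100b in AKG against control leave out 0, and all 20 intervals of the comparisons among the treated groups include it.

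By mean FPKM the order of the members was S100b (109), Slc1a2 (80.9), Slc1a3 (61.4), Ntsr2 (60.3), Gjb6 (42.9), Aqp4 (30.1), Gja1 (29.3), Slc7a10 (21.7), Aldh1l1 (19.9) and Sox9 (9.14). Slc1a3 and Ntsr2 changed places between libraries, as did Aqp4 and Gja1, so these neighbours did not differ beyond their spread. Slc7a10 was above Aldh1l1 in all libraries but control library 1. S100b was first in 6 libraries, and Slc1a2 was first in AKG library 1 and combined library 1. In control library 1 Slc1a2 was also below Slc1a3, Ntsr2 and Gjb6.

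The members did not vary as 1 unit over the 8 libraries, which share their sequencing depth scaling and the departure of control library 1. Of 45 gene pairs 26 had a Pearson r above 0, with a median of 0.11 and a range from -0.87 (Slc1a3 with Slc7a10) to 0.90 (Aldh1l1 with S100b). Slc1a2 ran against S100b (-0.79), Aldh1l1 (-0.64) and Gja1 (-0.62). Gja1 ran with S100b at 0.72. The gene most like Slc1a2 was Slc4a4, the sodium bicarbonate cotransporter of astrocytes, with r = 0.997. Slc4a4 was at 16.6 and 22.8 FPKM in control, 28.1 and 27.6 with the vector, 27.3 and 27.3 with AKG and 30.3 and 25.6 with both, and its gene model is also long, at 10815 bases. The most like S100b was Tfpt (r = 0.989), at 22.3 and 18.7 FPKM in control and 14.1 to 18.9 in the other groups, with a short model of 1201 bases. For the other members the closest genes were Rbm24 (Slc1a3, 0.949), mt-Co3 (Aqp4, 0.946), Uqcrfs1 (Aldh1l1, 0.962), Ska2 (Gja1, 0.964), Tmem47 (Gjb6, 0.954), Dnmbp (Sox9, 0.957), Xab2 (Ntsr2, 0.952) and Spry2 (Slc7a10, 0.982). The mean standardised level of the 10 was most like mt-Atp6 (0.928), St7l (0.919), Serf1 (0.898), Zfp511 (0.892), Icosl (0.891), Zfp729b (0.890), Aifm2 (0.889), Clp1 (0.884), Sparcl1 (0.873) and Acot6 (0.873), of which Sparcl1 is in the wider astrocyte list. These are the highest values among 12326 tested protein-coding genes over 8 points and are a description only.

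A wider list of 66 further astrocyte genes, 64 of them tested, had medians near 0 too. None was called in any of the 6 comparisons (limma). At an unadjusted p under 0.05 there were 6 of 64 in vector, 9 in AKG and 5 in combined against control, 1 in combined against AKG, and 0 in combined against vector and in the interaction. Over all 13716 tested genes there were 2305, 2431 and 1907 in the same order against control. There were 156 in combined against AKG, 186 in combined against vector and 998 in the interaction. Voom called 1 gene of all tested in AKG against control and 0 in each of the other 5 comparisons. With the vector 34 of the 64 lay above the control mean and 30 below (median 0.03), with AKG 30 and 34 (-0.02), and with both 33 and 31 (0.04). Of all tested genes 48.8%, 48.6% and 49.2% lay above it. For combined against vector the median was 0.00, for combined against AKG -0.00 and for the interaction -0.05. Its libraries did not overlap with control for 18 genes above and 16 below with the vector, 19 and 11 with AKG, and 16 and 12 with both, beside the background shares given above for these comparisons.

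By role, transporters of ions and bicarbonate were above control in 7 of 8 genes in each of the 3 groups, with medians of 0.20 (vector), 0.28 (AKG) and 0.22 (combined). The potassium channel gene Kcnj10 had the highest difference of them with the vector and with AKG, at 35.9 and 63.2 FPKM in control, 83.1 and 63.8 with the vector, 73.3 and 83.8 with AKG and 67.3 and 66.9 with both. Its difference was 0.60 ± 0.26 in the vector and 0.71 ± 0.26 in the AKG group (adjusted p = 0.297 and 0.270), and with both it was 0.48 ± 0.26, beside 0.49 ± 0.16 for Slc4a4. Control library 1 was the lowest, and control library 2 was just below the other 6. Metabolic and lipid genes were below control in 10 of 12 genes in each group, with medians of -0.17, -0.17 and -0.18. With the vector, these roles divided along gene length. Slc39a12, the ion gene below control, has the shortest model of its role, at 2998 bases. Acsl6 and Dio2, the metabolic genes above control, have the longest of theirs, at 9914 and 5815 bases. The part of gene length in the role medians was not tested. The lipoprotein gene Apoe, which microglia also express, was at 2417 and 1464 FPKM in control and at 1106 to 1628 elsewhere, and its difference was -0.68 ± 0.27 in the vector and -0.62 ± 0.27 in the AKG group (adjusted p = 0.294 and 0.287). For amino acid handling (9 genes) the medians were -0.13, -0.08 and 0.04, for endfoot and adhesion genes (8) 0.12, 0.04 and 0.13, and for receptors (10) 0.13, 0.12 and 0.14. Phagocytic and secreted factors (10) had medians of 0.05, -0.08 and -0.03, and transcription factors (7) of -0.01, 0.05 and 0.04. The 3 comparisons share the control libraries, and their neuron and reactive marker levels and length trend, given above, were not accounted for here.

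The proteoglycan gene Ncan was above control by 0.53 ± 0.23 in the vector, 0.64 ± 0.23 in the AKG and 0.54 ± 0.23 in the combined group (adjusted p = 0.297, 0.270 and 0.358). Its level was 5.28 and 9.43 FPKM in control and 9.71 to 12.3 elsewhere. The phagocytic receptor Megf10 was above control by 0.60 ± 0.22 in the combined group (adjusted p = 0.349). Below control lay the adenosine receptor Adora2b in the vector group (-0.53 ± 0.19, adjusted p = 0.294) and the angiotensinogen gene Agt in the AKG (-0.62 ± 0.21, adjusted p = 0.269) and combined group (-0.47 ± 0.21, adjusted p = 0.360). Agt, which marks astrocytes outside the forebrain, was at 348 and 219 FPKM in control and at 178 to 204 elsewhere. Adora2b was at 6.96 and 4.42 FPKM in control and at 3.61 and 3.48 with the vector. For each of these genes control library 1 lay further from the other groups than control library 2. The gene models of Ncan and Megf10 are long, at 7195 and 7718 bases, beside a median of 4070 over tested genes. Those of Adora2b and Agt are short, at 1845 and 1891 bases. The part of gene length in these differences was not tested. The differences without control library 1 are not given here.

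Fabp7, a brain fatty acid-binding protein gene, was the wider-list gene with the lowest fitted difference in each comparison of the combined group with another group. It was at 31.2 and 38.6 FPKM in control, 32.5 and 20.7 with the vector, 25.5 and 28.2 with AKG and 14.7 and 20.2 with both. Both combined libraries were below all 6 others. Its gene model is short, at 1250 bases. The difference was -0.97 ± 0.24 against control (adjusted p = 0.349), -0.56 ± 0.24 against vector and -0.61 ± 0.24 against AKG (adjusted p = 1 for both). At the other end of these last 2 comparisons were Gldc (0.29 ± 0.26) and Apoe (0.26 ± 0.27) against vector, and Gpc4 (0.30 ± 0.24) and Megf10 (0.23 ± 0.22) against AKG, while the Notch target Hes5 was at -0.23 ± 0.28 and -0.31 ± 0.28, all with an adjusted p of 1. For the interaction Apoe (0.88 ± 0.38) and Agt (0.63 ± 0.29) were highest and Kcnj10 (-0.82 ± 0.37) and Ncan (-0.63 ± 0.33) lowest (adjusted p = 0.537 for all 4). A shift from control that all treated groups share also enters this value. Control library 1 was the highest library for Apoe and Agt and the lowest for Kcnj10 and Ncan. In control, Apoe was at 2417 and 1464 FPKM and Kcnj10 at 35.9 and 63.2.

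**Figure D4:**
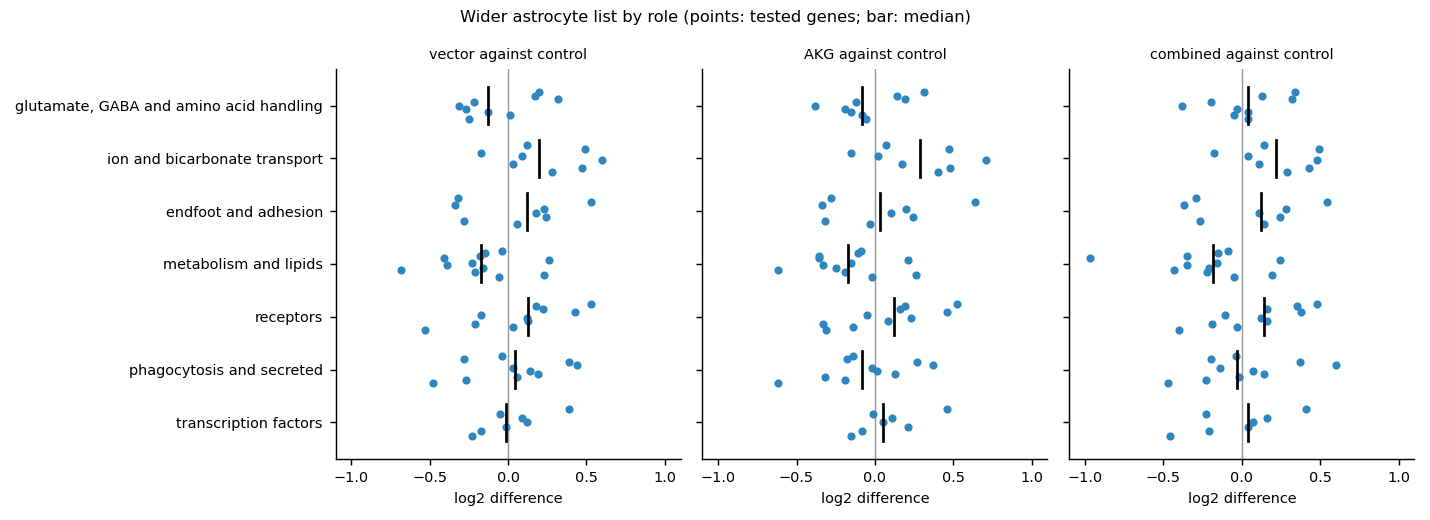
Fitted log2 differences (x axis) of the 64 tested genes of the wider astrocyte list by role (y axis) in the 3 comparisons with control, with 1 point per gene and a bar at the median of each role. Ion and bicarbonate transporters lie mostly to the right of 0 (medians 0.20, 0.28 and 0.22) and metabolic and lipid genes mostly to the left (-0.17, -0.17 and -0.18). The gene length trend was not removed from these differences.

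In control library 1 the reactive astrocyte list was high while the mean of the identity genes was not, with members that differed in direction. Aldh1l1, Gja1, Gjb6 and S100b had their highest value in that library, and Slc1a2 and Ntsr2 their lowest. Gfap, the intermediate filament of reactive astrocytes, was at 157 and 75.7 FPKM in control and at 39.8 to 66.3 in the other 6 libraries, and Vim was at 38.3 in the first control library and at 14.1 to 16.3 in 7 others. Of 20 reactive genes 11 were tested, 5 of the rest being under 1 FPKM in all 8 libraries, and 0 were called in any comparison (limma). At an unadjusted p under 0.05 there were 2 in each comparison with control, 1 in the interaction and 0 in the other 2. Over all 13716 tested genes there were 2305 in vector, 2431 in AKG and 1907 in combined against control. The interaction had 998, combined against vector 186 and combined against AKG 156. With the vector 10 of the 11 lay below the control mean (median -0.17), with AKG 9 (-0.22) and with both 10 (-0.23). Of all tested genes 48.8%, 48.6% and 49.2% lay above the control mean in these groups. The mean log2 level of the reactive list was 2.34 in control library 1 and 1.74 to 1.84 elsewhere, whereas that of the identity genes was 5.27 and 5.16 to 5.32. The microglia list had means of 4.04 and 3.94 in control and 3.57 to 4.02 in the other libraries, and the neuron list one of 5.64 in control library 1 and of 6.23 to 6.32 elsewhere. Markers of ependyma, the cells that line the ventricles, moved with the reactive list: 7 of them summed to 202 FPKM in control library 1 and to 46.5 to 77.3 elsewhere, with mean log2 levels of 4.36 and of 2.64 to 3.22. Their part in the reactive list values was not tested.

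**Figure D5:**
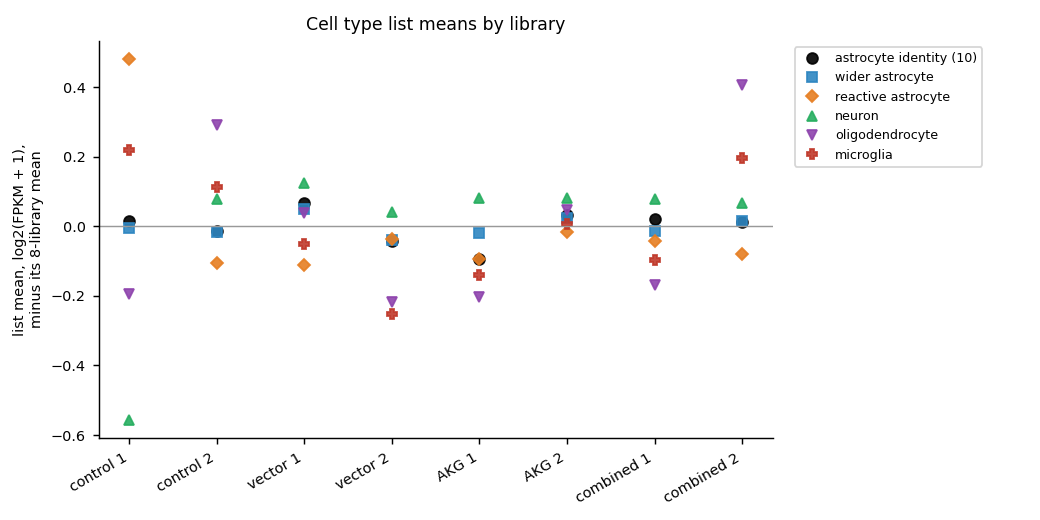
Mean log2(FPKM + 1) of 6 cell type lists in each library (x axis), minus the list's own 8-library mean (y axis). In control library 1 the neuron list lies lowest and the reactive astrocyte list highest, while the astrocyte identity genes and the wider astrocyte list stay near 0 in all 8 libraries.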

How the data were processed

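Expression in 8 libraries (4 groups of 2) was read from 1 deposited table of FPKM with 54532 genes. The extract protocol in the labels names a column RNA kit and a SMARTer mRNA library kit, and the submitters' processing notes name GRCm38 and mm10. The aligner, counter, strand setting and library size rule are unstated there. Values are FPKM per gene as the authors deposited them, with gene length, per the file headers. FPKM times length was a whole multiple of 1 step per library for 100% of values (within 0.01 of a read), which gave reads.

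Genes whose mean reached 1 FPKM (13716) were fitted on log2(FPKM + 1) with limma 3.58.1 in R 4.3.3 (1 mean per group over all 8 libraries, 4 residual degrees of freedom, two-sided eBayes with trend). Adjustment was by Benjamini-Hochberg over these genes, with 0.05 as threshold, and the fit was tested on simulated data. Groups came from the sample titles. The members and lists were chosen with earlier results of these data known, so lists got no test. 1 oligodendrocyte marker is not reported here. All members were named, with a difference where groups did not overlap or for the smallest p of a comparison, and of the wider list the 2 highest and 2 lowest per comparison. Likeness of pattern was Pearson r over 8 libraries among tested protein-coding genes. Promoters were from RefSeq (GRCm38.p6), exons from GENCODE M21. Alternatives were other filters, pseudocounts, scalings, variance models, a replicate block, a length trend removed (spline, 5 degrees of freedom), voom on the reads and leaving out each library. Tables and plots were made in Python 3.11.15 (pandas 2.3.3, matplotlib 3.10.9).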

Additional observations from a re-analysis of the deposited data

How the results depend on the processing

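Each count of called genes, member median and named member difference was recomputed in up to 19 alternative settings. The count of genes called over all genes was 0 for vector against control, 1 for AKG against control and 0 in the other 4 comparisons. Without a filter on low values it was 5 (vector against control), 12 (AKG against control), 4 (combined against control), 6 (combined against vector) and 14 (combined against AKG). With a pseudocount of 0.1 it was 2 for AKG and 1 for the combined group against control. For AKG against control it was 0 with the replicate block, without a variance trend, with library weights and with the length trend removed. When each library was left out in turn it ranged from 0 to 3359 (vector), 0 to 3376 (AKG) and 0 to 2916 (combined) against control and from 0 to 1369 for the interaction, with every high end reached without control library 2, where control library 1 stood alone and was assumed to vary like the other groups. In that setting 1 member was called in each of these 4 comparisons and 0 when any other library was left out. It was Slc1a2, with a value of -0.97 for the interaction, against -0.66 with all libraries. Any shift from control that all treated groups share enters the interaction too.

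When each library was left out, the member median ranged from -0.10 to 0.04 (vector), -0.13 to -0.04 (AKG) and -0.10 to 0.00 (combined) against control, from -0.03 to 0.07 for combined against vector, from 0.00 to 0.10 for combined against AKG and from -0.04 to 0.12 for the interaction. It was -0.03 for the interaction with quantile normalization. Slc1a3 in the vector group turned to -0.12 with the length trend removed. The count of members apart from control changed from 1 to 2 above and 2 to 4 below (AKG), and from 1 to 2 above and 1 to 2 below (combined), without control library 1, an alternative chosen after seeing the data. The share of all tested genes rose there too, from 26.0% to 35.0% above and 26.4% to 39.2% below (AKG), and from 21.3% to 29.3% above and 20.5% to 32.4% below (combined). Same-numbered libraries of 2 groups had deviations that correlated at -0.32 to 0.34 across genes, which does not settle whether the numbers pair them. Each group holds 1 library of each number, so the replicate block cannot change a group difference. Its median of 0.02 for combined against vector was therefore fixed in advance. The block changes only the spread, and with it 0 members were called. Within every group the pair of libraries differed beyond counting noise (chi-square per degree of freedom of 9.72 to 59.3).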
